A study of Mus musculus with 199 samples.

Results

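The genes described are 10 members of the endoplasmic reticulum chaperone and stress programme: Hspa5, Hsp90b1, Sdf2l1, Manf, Canx, Calr, Pdia4, Creld2, Xbp1 and Ddit3. They are 10 of the 37713 genes in a table of raw read counts, found by matching each Ensembl identifier to its symbol. The table holds 199 libraries from male wild-type C57BL/6 mice of an in-house colony, in a study of liver cancer arising on fatty liver disease. Of these, 73 are CD3+ T cells sorted from blood or liver, 61 are Ly6G+ neutrophils from the same sites and 65 are pieces of liver or liver tumour.

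The T cell groups are named by treatment. PBS (8 liver and 8 blood libraries) and CXCR2i, an inhibitor of the chemokine receptor CXCR2 (6 and 6), carry no DEN ALIOS label. The other groups carry the label DEN ALIOS, a chemical carcinogen combined with a high-fat, high-sugar diet: DEN ALIOS without a further treatment (6 and 7), with aPD1, an antibody against the T cell checkpoint receptor PD-1 (5 and 5), with CXCR2i (6 and 6), and with CXCR2i and aPD1 together (5 and 5, the combination). In the DEN ALIOS group 1 liver and 2 blood libraries are also labelled Vehicle, and in each site 4 of the 6 DEN ALIOS CXCR2i libraries also carry an aPD1 isotype antibody. Neutrophils come from the 4 DEN ALIOS groups (blood 7, 5, 10 and 10 libraries and liver 6, 5, 10 and 8, in the order untreated, aPD1, CXCR2i and combination). Tissue libraries are liver tissue (15), small tumours (25) and large tumours (25). The labels give no age, dose or duration. Liver T cells are titled as liver, while the extraction text says that cells were sorted from blood and tumours of DEN/ALIOS mice, so whether a liver library holds cells of tumour or of surrounding liver is not settled by the labels. Liver tissue is titled DEN ALIOS, while its treatment entry reads Normal and the extraction text calls it healthy.

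Secreted and membrane proteins fold in the endoplasmic reticulum (ER) with the help of chaperones. Unfolded protein there activates the sensors ATF6, IRE1 (encoded by Ern1) and PERK (Eif2ak3). ATF6 and XBP1, the latter switched on when IRE1 splices its messenger RNA, raise chaperone genes by binding the ER stress response element, while PERK slows translation and raises ATF4 and its target Ddit3. T cells use the same pathway when they are activated, and hepatocytes, as secretory cells, depend on it. Of the members, Hspa5 encodes BiP, the main luminal chaperone and the brake on all 3 sensors. Hsp90b1 encodes GRP94, a luminal chaperone of integrins and Toll-like receptors, and Sdf2l1 and Manf encode partners of BiP. Canx and Calr encode calnexin and calreticulin, the lectin chaperones that hold glycoproteins. Pdia4 is a disulfide isomerase, Creld2 an ER-stress-induced secreted protein with disulfide isomerase activity, Xbp1 the transcription factor described above, and Ddit3 encodes CHOP, a transcription factor of the PERK arm linked to cell death.

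The ER stress response element, searched on both strands as CCAAT, then 9 bases of any kind, then CCACG, is shown because several members share it. Chaperone genes are raised through this element, as described above, so finding it in a set of such genes is not separate support for the set. RefSeq promoter windows of GRCm38.p6, from 250 bases before to 50 bases after the start of the gene, were found for 9 of the 10 members (Manf has no entry). The whole element was present in 5 members and in 0.119% of the 32851 windows in the table. Hsp90b1 carried 2 copies. In the sequences below, each written 5′ to 3′ along the strand of its gene, the element or its reverse complement is in capitals.

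Hspa5: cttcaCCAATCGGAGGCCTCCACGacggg
Hsp90b1: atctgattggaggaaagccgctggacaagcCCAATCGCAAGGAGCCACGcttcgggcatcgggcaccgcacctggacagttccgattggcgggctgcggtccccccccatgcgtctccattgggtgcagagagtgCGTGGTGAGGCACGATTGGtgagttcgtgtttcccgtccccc
Canx: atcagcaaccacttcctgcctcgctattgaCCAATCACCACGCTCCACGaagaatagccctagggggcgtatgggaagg
Calr: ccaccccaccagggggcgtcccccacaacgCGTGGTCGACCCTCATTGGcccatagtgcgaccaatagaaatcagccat
Creld2: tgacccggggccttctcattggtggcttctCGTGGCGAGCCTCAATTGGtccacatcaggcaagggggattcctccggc

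These stretches lie at chr2:34772020-34772048 on the plus strand (Hspa5), chr10:86705510-86705686 on the minus strand (Hsp90b1), chr11:50325770-50325848 on the minus strand (Canx), chr8:84847045-84847123 on the minus strand (Calr) and chr15:88819490-88819568 on the plus strand (Creld2). The Hspa5 element lies in the first exon of the GENCODE M21 annotation, although it precedes the RefSeq start. The other stretches printed lie outside the GENCODE exons of their own gene, and exons of other genes were not checked there. The windows of Sdf2l1, Pdia4, Xbp1 and Ddit3 hold no whole copy of these letters. No member window held its second form, ATTGG, 1 base of any kind and CCACG (in 0.0365% of windows), TGACGTGG (0.676%) or TGATGNAAN (3.95%). A match is a description of the sequence and not a measured binding site.

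Positions of the genes themselves are those of GENCODE M21 on GRCm38, the build the submitters name. Hspa5 (ENSMUSG00000026864) lies at chr2:34771970-34777547, Hsp90b1 (ENSMUSG00000020048) at chr10:86690209-86705509, Sdf2l1 (ENSMUSG00000022769) at chr16:17130138-17132383 and Manf (ENSMUSG00000032575) at chr9:106838312-106891979. Canx (ENSMUSG00000020368) lies at chr11:50293961-50325673, Calr (ENSMUSG00000003814) at chr8:84841850-84846934, Pdia4 (ENSMUSG00000025823) at chr6:47796141-47813430 and Creld2 (ENSMUSG00000023272) at chr15:88819646-88826683. Xbp1 (ENSMUSG00000020484) lies at chr11:5520659-5525893 and Ddit3 (ENSMUSG00000025408) at chr10:127290774-127296288. A transcript on the other strand covers 10.3% of the Hsp90b1 exons, and 2 genes on its own strand cover 3.30% and 2.08%. No single gene covers more than 6.13% of the exons of another member, although Manf and Ddit3 overlap 3 genes each. The overlap of 6.13% is with another protein-coding gene that is also named Ddit3, on the same strand. Ddit3 levels here are those of ENSMUSG00000025408 alone. Whether the counting used the strand is not given in the sources used here, and reads in those stretches are uncertain.

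Facts of the whole table bear on what follows. Gene counts ran from 337110 to 10755816 per T cell library (median 6291780), from 580113 to 9256224 per neutrophil library and from 12055434 to 21850190 per tissue library. Liver T cells of PBS replicates 3 (337110) and 4 (440785) were the shallowest. The summed hepatocyte markers reached 4436 CPM (counts per 1000000 gene counts) in a liver T cell library, while the summed T cell markers ran from 1054 to 5029 CPM over the T cell libraries. The labels name the sequencing run of each library, and the T cell libraries fall in 5 sets of runs, written A to E here. DEN ALIOS lies wholly in set A, aPD1 wholly in set B and CXCR2i alone wholly in set E. PBS is divided between C (3 libraries per site) and D (5), DEN ALIOS CXCR2i between B (4) and C (2) and the combination between A (2) and B (3). In such bulk samples fewer expressing cells and less RNA per cell cannot be told apart. All levels below are CPM scaled by the trimmed mean of M values, and levels are compared only within a gene.

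The 10 genes were chosen by measured values of this table, and which comparison served is not recorded. Their values in T cells, tissue and tumours are counted as used in that choice and given as a description. A gene is called where edgeR's quasi-likelihood test, adjusted over all genes by the Benjamini-Hochberg method, gave an adjusted p under 0.05. Nothing is read from the members' counts of calls against the share of all genes called, which stands beside them.

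In T cells the members were higher in liver than in blood. Hspa5 lay between 178 and 323 CPM in all 37 blood libraries. Liver libraries of DEN ALIOS ran from 387 to 583 CPM (median 469), those of CXCR2i from 357 to 567 (486), and those of DEN ALIOS CXCR2i from 514 to 777 (695). Liver aPD1 libraries stood at 520, 438.5, 488, 440 and 441 CPM, and the combination at 340, 380, 545, 644 and 482 CPM. In these 5 groups the liver and blood libraries did not overlap. Liver libraries of PBS were lower and more spread, from 135 to 377 CPM with a median of 321, and 32 of all 36 liver libraries lay above every blood library. Hspa5 was higher in liver than in blood of the same animal in 34 of 36 animals. The median ratio within an animal was 2.29 in DEN ALIOS (range 1.87 to 2.48), 2.23 in CXCR2i (1.75 to 2.65), 2.58 in DEN ALIOS CXCR2i (1.86 to 3.24), 1.78 in aPD1 (1.47 to 1.86), 2.1 in the combination (1.61 to 2.67) and 1.45 in PBS (0.578 to 1.78).

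**Figure D1:**
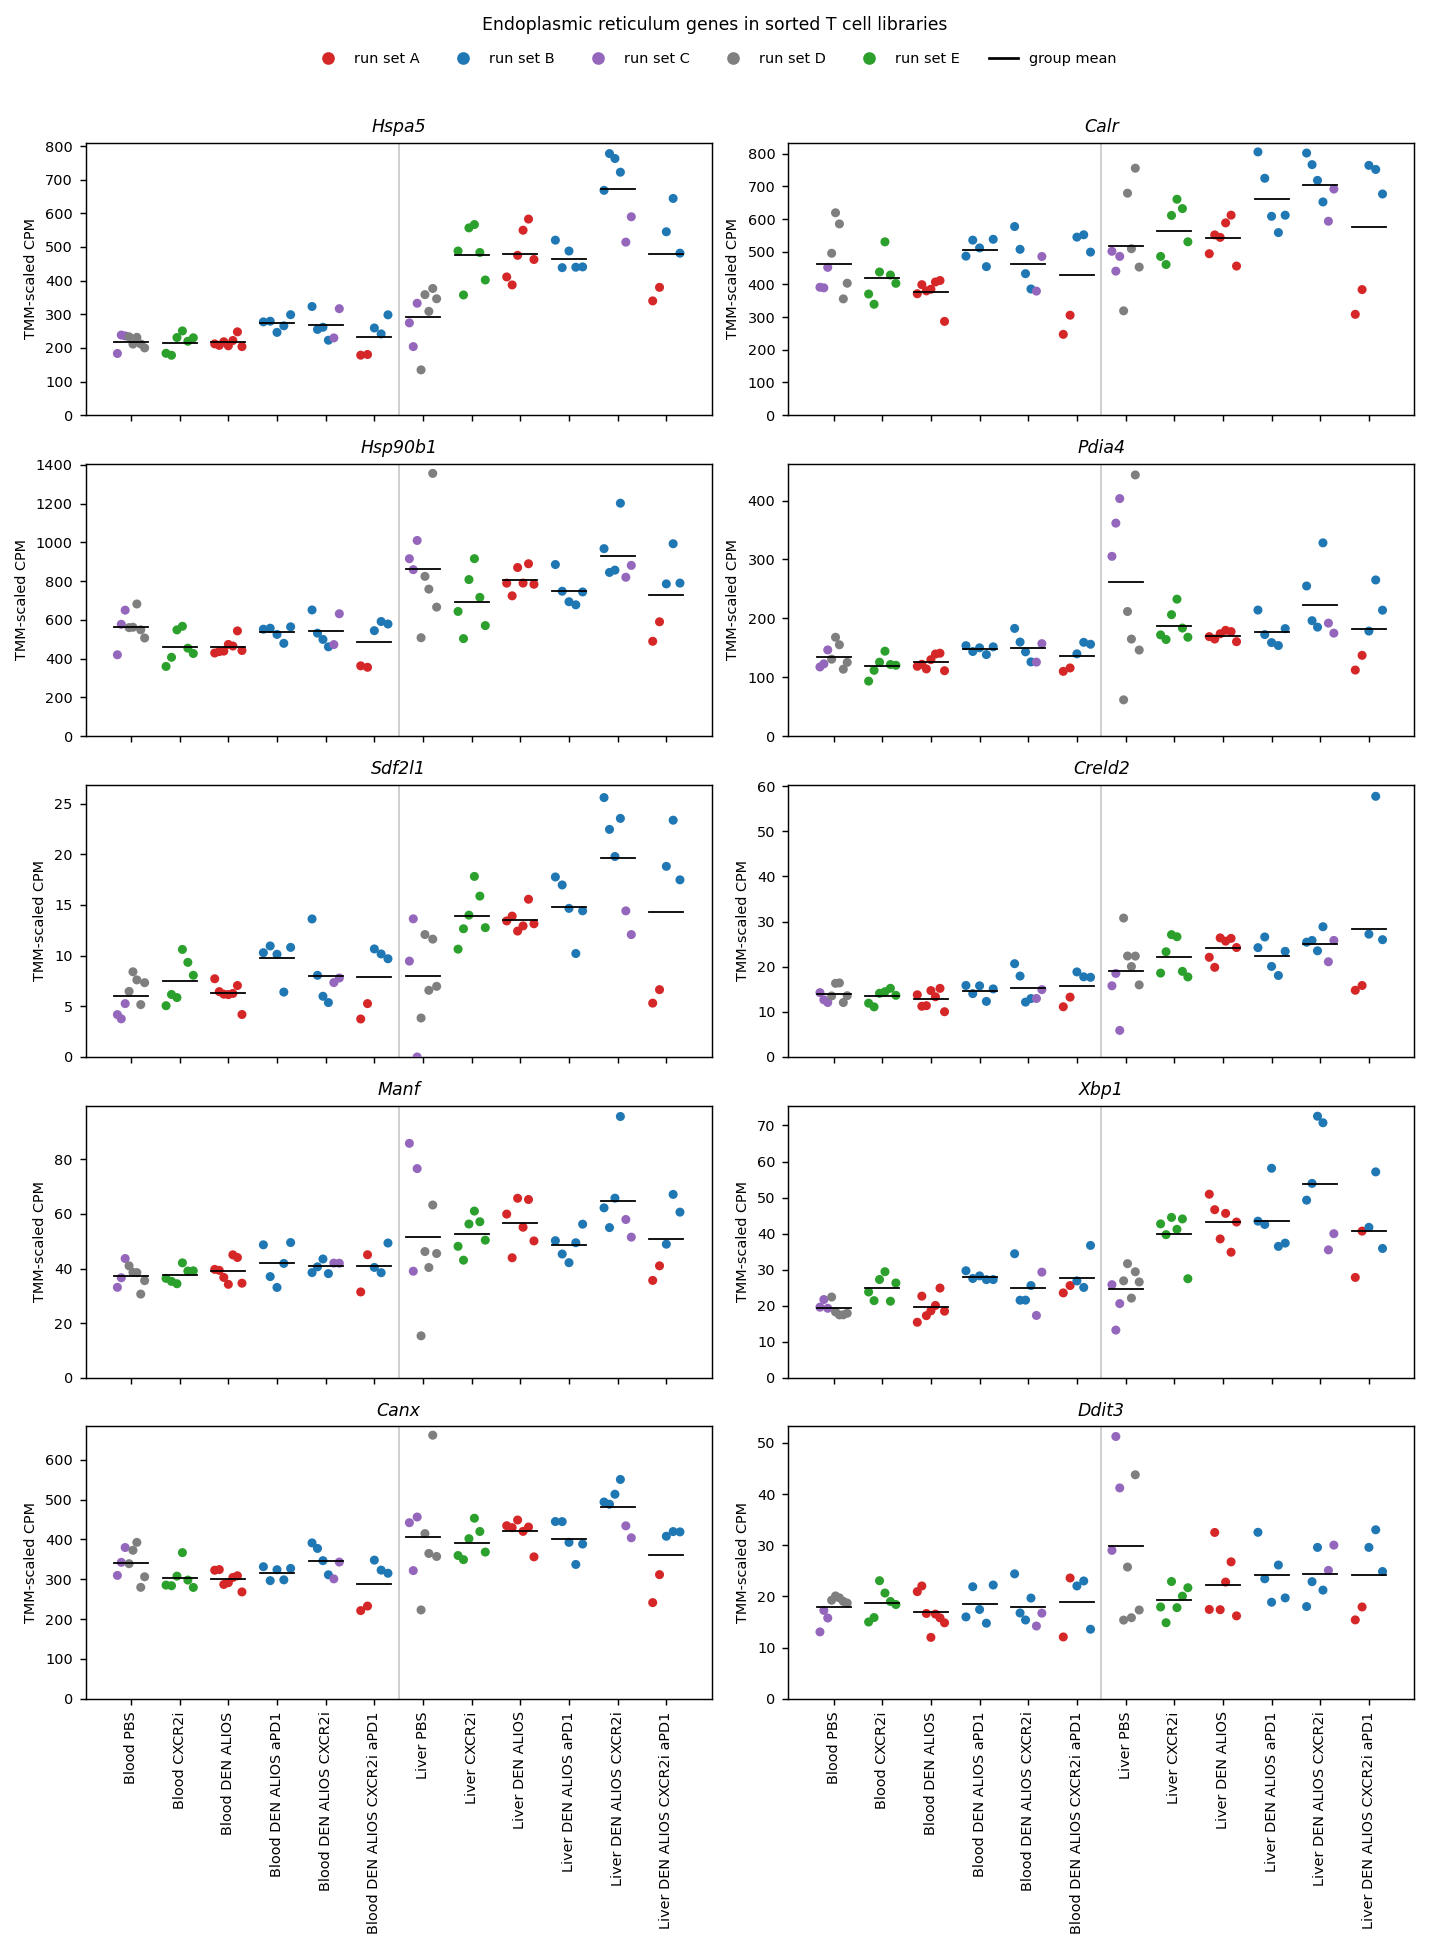
Level of each of the 10 members in every T cell library, in CPM scaled by the trimmed mean of M values, with 1 panel per gene, blood and liver groups along the x axis, points coloured by set of sequencing runs and a black line at each group's mean. Hspa5 blood libraries lie between 178 and 323 CPM, and 32 of 36 liver libraries lie above all of them.

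Hsp90b1, the other large luminal chaperone, ran from 429 to 543 CPM in blood and from 724 to 890 CPM in liver of DEN ALIOS, with no overlap, and 28 of the 36 liver libraries exceeded the highest of all blood libraries, 682 CPM. PBS liver libraries spanned 508 to 1356 CPM.

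The partners of BiP are expressed at low levels. Sdf2l1 ran from 4.19 to 7.72 CPM in blood and from 12.4 to 15.6 CPM in liver of DEN ALIOS, again with no overlap. Liver PBS libraries lay between 0 and 13.6 CPM (median 8.21). The library at 0 is PBS replicate 3, whose 337110 gene counts allow up to 8.90 CPM at a count of 0, taken as 3 counts. Manf ran from 34.2 to 45.0 CPM in blood and from 43.9 to 65.7 CPM in liver of DEN ALIOS, and the ranges overlapped. Its PBS liver libraries ran from 15.4 to 85.8 CPM and overlapped blood on both sides.

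Of the lectin chaperones, Canx ran from 268 to 324 CPM in blood and from 356 to 449 CPM in liver of DEN ALIOS, and Calr from 287 to 412 and from 456 to 612 CPM. The groups did not overlap for either gene. Over all groups the ranges met, since 24 (Canx) and 14 (Calr) of 36 liver libraries exceeded every blood library.

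Creld2 ran from 10.0 to 15.2 CPM in blood and from 19.9 to 26.4 CPM in liver of DEN ALIOS, without overlap. Pdia4 ran from 111 to 141 CPM in blood and from 160 to 180 CPM in liver of the same group. PBS differed for Pdia4, with liver libraries between 61.5 and 443 CPM, and it held the highest of the 6 liver means, 262 CPM (SD 136, n = 8).

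Of the transcription factors, Xbp1 ran from 15.4 to 24.9 CPM in blood and from 34.9 to 50.9 CPM in liver of DEN ALIOS. In PBS the 2 sites overlapped for Xbp1, at 17.5 to 22.4 CPM in blood and 13.3 to 31.7 CPM in liver. Ddit3 overlapped between sites in DEN ALIOS, at 12.0 to 22.1 CPM in blood and 16.2 to 32.5 CPM in liver, and its highest libraries were PBS liver libraries, up to 51.3 CPM.

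In the fit with the animal as a block, all 60 estimates (10 members in 6 groups) were above 0 and 44 were called. Called members numbered 7 in PBS (35% of 13859 genes called), 9 in CXCR2i (16.6%), 8 in DEN ALIOS (33.0%), 5 in aPD1 (16.6%), 9 in DEN ALIOS CXCR2i (34.0%) and 6 in the combination (16.2%). Called higher were 18.4%, 10.0%, 19.8%, 9.25%, 19.9% and 8.88% of genes in the same order. The member with the largest estimate in CXCR2i was Hspa5, at a log2 fold change of 1.13 ± 0.13 (SE). In DEN ALIOS, Hspa5 stood at 1.13 ± 0.13, Sdf2l1 at 1.13 ± 0.21 and Xbp1 at 1.11 ± 0.17. In DEN ALIOS CXCR2i, Hspa5 stood at 1.33 ± 0.13, Sdf2l1 at 1.30 ± 0.21 and Xbp1 at 1.09 ± 0.17. Hspa5 was lower in aPD1 (0.77 ± 0.14) and in PBS (0.41 ± 0.11), and in PBS the largest estimate was that of Pdia4, 0.84 ± 0.17. Ddit3 was called in PBS alone, at 0.67 ± 0.18, and stood between 0.04 and 0.46 in the other groups. The members' median log2 difference lay between 0.431 and 0.686 over the 6 groups, against -0.0194 to 0.0403 for all genes tested.

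**Figure D2:**
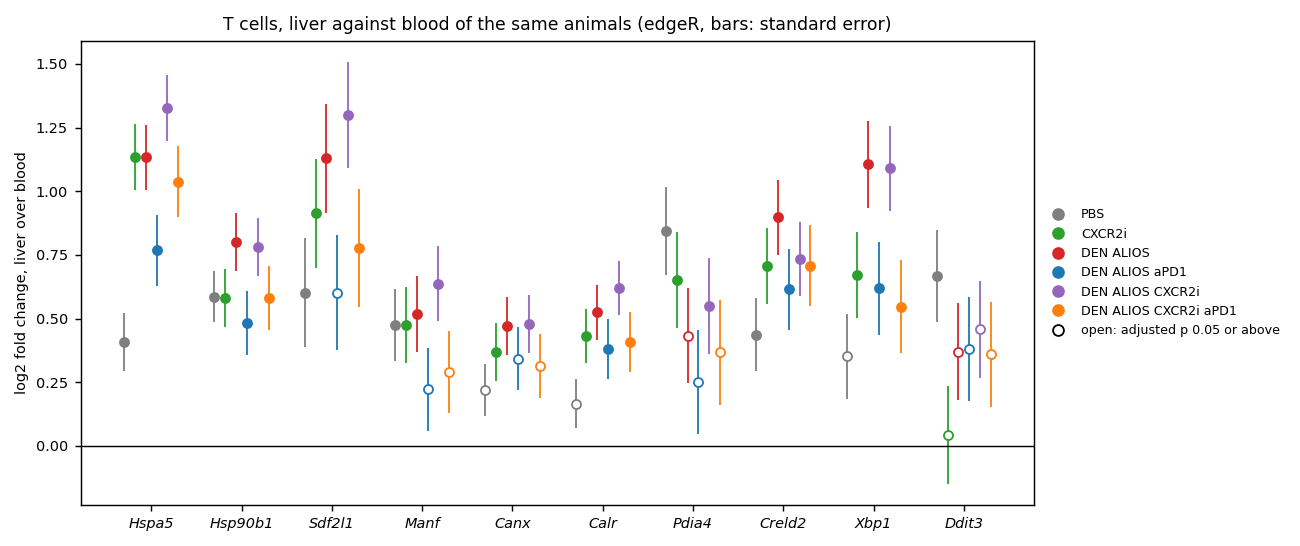
Log2 fold change of each member between liver and blood T cells of the same animals, with the SE as error bar, for the 6 groups. Filled points have an adjusted p under 0.05 and open points do not. All 60 points lie above 0, and Hspa5 runs from 0.41 in PBS to 1.33 in DEN ALIOS CXCR2i.

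Within an animal the direction was shared by most genes of the set. Liver was higher in 35 of 36 animals for Hsp90b1 and Creld2, in 34 for Hspa5, Calr, Pdia4 and Xbp1, in 33 for Manf and Canx, in 31 for Sdf2l1 and in 27 for Ddit3. Leaving out 5 liver libraries that had under 1000000 gene counts or over 1000 CPM of summed hepatocyte markers (PBS replicates 2, 3 and 4, DEN ALIOS CXCR2i replicate 3 and combination replicate 3) left every Hspa5 call, with log2 fold changes of 0.70 ± 0.10 in PBS, 1.10 ± 0.09 in CXCR2i, 1.12 ± 0.09 in DEN ALIOS, 0.75 ± 0.10 in aPD1, 1.26 ± 0.10 in DEN ALIOS CXCR2i and 0.93 ± 0.11 in the combination. The PBS value of Hspa5 moved by over 1.5 times, from 0.41 to 0.70. With single libraries left out, members called ranged from 3 to 7 in aPD1, where leaving out replicate 1 or 3 gave 3, and from 2 to 6 in the combination, where leaving out replicate 3 gave 2 and replicate 2 gave 3. Hspa5 and Hsp90b1 kept their calls in all 5 such fits of both groups, while Calr lost its call in 4 fits of aPD1 and 3 of the combination.

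Other genes moved between the sites too. A list of 12 immediate early and cytosolic heat shock genes had 12 members called higher in liver in every group but PBS, where 10 were. Its summed level had a median of 951 to 1111 CPM in the blood groups and 1701 (PBS) to 4020 CPM (DEN ALIOS CXCR2i) in the liver groups. Hspa1a, the inducible cytosolic HSP70 that responds to heat and handling, had a log2 fold change of 2.65 ± 0.64 in PBS and of 7.04 to 8.42 in the other groups. Summed plasma cell markers, from a cell type rich in ER chaperones, had medians of 22.2 to 76.1 CPM in the blood groups, 46.5 CPM in liver of PBS and 175 to 276 CPM in the other liver groups. Of that list Tnfrsf17, the plasma cell survival receptor, had no count in 9 of 12 groups. The list also holds Irf4, a gene of activated T cells too, with a mean of 29.2 CPM over T cell libraries. Which genes carry the summed level is not given here, so it is not a measure of plasma cells alone. Of 12 cell cycle genes, 7 to 12 were called higher in liver. The part of handling, plasma cells, hepatocyte RNA or proliferation in the members' difference was not tested.

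The rest of the pathway was counted in lists of genes with other roles. Of 16 tested genes of the PERK and ATF4 arm, 7 rose in PBS, 5 in CXCR2i, 9 in DEN ALIOS, 6 in aPD1, 8 in DEN ALIOS CXCR2i and 8 in the combination, and none fell. Atf3, a stress transcription factor downstream of ATF4, rose by 3.33 ± 0.98 (PBS) to 6.18 ± 0.74 (DEN ALIOS CXCR2i) on the log2 scale. Of 20 other chaperones and folding enzymes, 4, 7, 9, 4, 8 and 5 rose in the same order of groups and 1 fell in aPD1. Pdia6, a disulfide isomerase, rose by 0.62 ± 0.10 in PBS, 0.74 ± 0.11 in CXCR2i, 0.72 ± 0.11 in DEN ALIOS and 0.57 ± 0.12 in aPD1. Among 8 sensors and transcription factors 3 or 4 rose in each group, with 1 falling in PBS and in DEN ALIOS. The sensor Atf6 rose by 1.19 ± 0.14 in CXCR2i, 1.19 ± 0.14 in DEN ALIOS, 0.99 ± 0.15 in aPD1, 1.28 ± 0.14 in DEN ALIOS CXCR2i and 0.77 ± 0.15 in the combination. Ern1, which encodes IRE1, rose by 0.88 ± 0.16 in PBS and by 1.44 ± 0.16 in DEN ALIOS CXCR2i. ER-associated degradation, which returns misfolded proteins to the cytosol, had 0 to 3 of 13 genes called higher and up to 2 called lower. Of 14 translocon genes 0 to 5 rose, and of 12 N-glycan genes 1 to 6 rose while the oligosaccharyltransferase subunit Stt3b fell by 0.47 ± 0.13 in PBS, 0.41 ± 0.14 in CXCR2i, 0.53 ± 0.15 in aPD1 and 0.59 ± 0.14 in DEN ALIOS CXCR2i.

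Ranked by the mean over libraries, the 6 liver groups took the top 6 places of the 12 T cell groups for 8 of the members, and 5 of the top 6 for Sdf2l1 and Xbp1. For Hspa5 the order ran from DEN ALIOS CXCR2i liver (672 ± 103 CPM, SD, n = 6) through the combination (478 ± 123, n = 5), DEN ALIOS (478 ± 76.4, n = 6), CXCR2i (476 ± 83.1, n = 6) and aPD1 (465 ± 37.1, n = 5) to PBS liver (292 ± 83.9, n = 8) and then the blood groups, from aPD1 (273 ± 19.3, n = 5) to CXCR2i (215 ± 28.6, n = 6). The ranges of mean ± SD overlapped between neighbours in this order, except between aPD1 liver and PBS liver. DEN ALIOS CXCR2i liver had the highest mean for Hspa5, Hsp90b1, Sdf2l1, Manf, Canx, Calr and Xbp1. PBS liver had it for Pdia4 and Ddit3, and the combination for Creld2, where replicate 3 stood at 57.7 CPM and the other 4 libraries between 14.8 and 27.2 CPM. Within DEN ALIOS CXCR2i liver, the 4 set B libraries had higher means than the 2 of set C for each gene it led. Hspa5 stood at 733 and 552 CPM, Sdf2l1 at 22.8 and 13.2, and Xbp1 at 61.6 and 37.7. The set C means of Sdf2l1, Xbp1, Manf and Canx lay below those of DEN ALIOS liver (13.6, 43.3, 56.6 and 420 CPM). Those of Hspa5, Hsp90b1 and Calr lay above.

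Across these 12 group means, the genes most like Hspa5 by Pearson's r of log2 values among 7610 genes were Nr4a1 (0.992), P4hb (0.981), Cd83 (0.979), Dusp1 (0.977), Tor1aip1 (0.976), Irf4 (0.974), Rgs2 (0.971) and Sat1 (0.971). Nr4a1 is an immediate early gene of T cell receptor signalling and Irf4 a transcription factor of activated T cells and plasma cells, while P4hb is a disulfide isomerase. Among the members, Creld2 (0.959), Manf (0.957), Sdf2l1 (0.956) and Xbp1 (0.955) were most like Hspa5. Their ranks were 28, 31, 33 and 37 of 7620 genes, a ranking that counts the members and Hspa5 itself. Pdia4 (0.762) and Ddit3 (0.629) were least like Hspa5. The 12 points are the 2 sites of 6 treatments and share animals and sequencing runs, so much of each r is the step between sites. Within the 6 liver groups r was 0.980 for Sdf2l1, 0.977 for Xbp1 and 0.971 for Nr4a1, but 0.164 for Hsp90b1, -0.239 for Pdia4 and -0.435 for Ddit3.

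DEN ALIOS and PBS differ by the label of carcinogen and diet and also by run set, so the comparison cannot isolate what the disease model does to T cells. In liver, Hspa5 was higher in every DEN ALIOS library (387 to 583 CPM) than in any PBS library (135 to 377 CPM), and so was Xbp1 (34.9 to 50.9 against 13.3 to 31.7 CPM). Of the members, 3 were called (33.8% of 13501 genes called): Hspa5 at 0.64 ± 0.16, Xbp1 at 0.76 ± 0.18 and Pdia4 at -0.70 ± 0.25. The Pdia4 call was lost without DEN ALIOS replicate 6 or PBS replicate 2, 3 or 7. CXCR2i without DEN ALIOS, against PBS, gave Hspa5 at 0.64 ± 0.16, Xbp1 at 0.65 ± 0.18 and Ddit3 at -0.72 ± 0.24 (21.5%), and 5 of its 6 liver libraries lay above all PBS libraries for both Hspa5 and Xbp1. The 2 comparisons share the PBS libraries. DEN ALIOS CXCR2i against CXCR2i gave all 10 estimates above 0 (0.17 to 0.48) and called none (9.25%). There were 3 members at an unadjusted p under 0.05 and 1 called by DESeq2, which called 2004 of 13501 genes in all.

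These groups were sequenced in different run sets, and treatment and run set cannot be told apart for CXCR2i. For DEN ALIOS against PBS a fit with the run set as a term could be made through DEN ALIOS CXCR2i and the combination. It gave Hspa5 at 0.98 ± 0.40, Xbp1 at 0.80 ± 0.41 and Pdia4 at -0.72 ± 0.61, none of them called, and called Creld2 at 1.67 ± 0.45. Without the 5 shallow or hepatocyte-rich libraries and with no run term, Hspa5 stood at 0.49 ± 0.14, Xbp1 at 0.63 ± 0.16 and Pdia4 at -0.61 ± 0.21 for DEN ALIOS against PBS, all called. For CXCR2i against PBS, Hspa5 stood at 0.50 ± 0.14 and Xbp1 at 0.53 ± 0.16, both called, while Ddit3 at -0.47 ± 0.23 was not. Hsp90b1, Manf, Canx and Calr overlapped PBS in both liver comparisons against it.

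In blood 1 member was called in each comparison against PBS. DEN ALIOS against PBS called Hsp90b1 at -0.29 ± 0.11 (22.5% of 12659 genes called), from a range of 420 to 682 CPM in PBS and 429 to 543 CPM in DEN ALIOS. That call was lost in 12 of 15 fits with 1 library left out, and with the run set as a term the value was 0.46 ± 0.23, so the direction turned. CXCR2i against PBS called Xbp1 at 0.39 ± 0.12 (10.0%), with 21.3 to 29.5 CPM against 17.5 to 22.4 CPM. DEN ALIOS CXCR2i against CXCR2i called none (8.88%), with 2 members at an unadjusted p under 0.05. DESeq2 called 2 there, among 1227 of 12659 genes called in all.

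The difference between liver and blood was compared between groups within the same fit. It was larger in DEN ALIOS than in PBS for Hspa5 by 0.73 ± 0.17 and for Xbp1 by 0.75 ± 0.24 on the log2 scale, both called (9.78%), and larger in CXCR2i than in PBS for Hspa5 by 0.73 ± 0.17 (6.40%). Without the 5 shallow or hepatocyte-rich libraries these were 0.42 ± 0.13, 0.48 ± 0.21 and 0.40 ± 0.13, and none was called. Against DEN ALIOS, the site difference of aPD1, CXCR2i and the combination called no member (0.0216%, 1.39% and 0.0% of genes called). At an unadjusted p under 0.05 there were 0, 0 and 1 members, and DESeq2 called 0 in each.

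The treatments of DEN ALIOS mice were compared with DEN ALIOS alone. Read as they stand, the liver levels of Sdf2l1 were 12.4 to 15.6 CPM in DEN ALIOS and 17.8, 17.0, 14.7, 10.2 and 14.4 CPM in aPD1, which overlap. Set B holds all of aPD1 and set A all of DEN ALIOS, and only the combination was sequenced in both. Its liver Sdf2l1 levels were 5.31 and 6.64 CPM in set A and 18.8, 23.4 and 17.5 CPM in set B, so within this single treatment the 2 run sets did not overlap. The same division appeared for Calr (308 and 384 CPM in A, 764, 752 and 677 in B), Canx (241 and 312 in A, 408, 420 and 419 in B) and Hsp90b1 (489 and 590 in A, 785, 993 and 790 in B). Creld2 (14.8 and 15.8 in A, 27.2, 57.7 and 26.0 in B) and Hspa5 (340 and 380 in A, 545, 644 and 482 in B) were also higher in set B. In blood, Hspa5 of the combination was 178 and 180 CPM in A and 259, 241.5 and 298 CPM in B.

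With the run set as a term, every member was estimated lower in liver under aPD1 than in DEN ALIOS, from -0.35 ± 0.28 (Xbp1) to -1.57 ± 0.24 (Sdf2l1). Sdf2l1 was the 1 gene of 13005 called (0.00769%). DESeq2 gave it no adjusted p there and called Hspa5, Hsp90b1, Canx and Calr, among 53 of 13005 genes called in all. Creld2 stood at -1.34 ± 0.31, Calr at -0.75 ± 0.18 and Hspa5 at -0.64 ± 0.18. The combination called Sdf2l1 at -1.14 ± 0.19 and Canx at -0.56 ± 0.11 (0.169%). DEN ALIOS CXCR2i called no member (0.669%), with Creld2 at -1.12 ± 0.31, Sdf2l1 at -0.94 ± 0.24 and Hspa5 at 0.03 ± 0.19. At an unadjusted p under 0.05 it had 3 members, and DESeq2 called 3, among 772 of 13005 genes called in all. Without the run term, Sdf2l1 turned to 0.12 ± 0.29 for aPD1 and 0.08 ± 0.29 for the combination, and DEN ALIOS CXCR2i called Hspa5 at 0.50 ± 0.14. Within set A alone, 2 combination libraries against 6 DEN ALIOS libraries, Sdf2l1 stood at -1.15 ± 0.16 and was called, and Canx at -0.58 ± 0.12 was not.

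**Figure D3:**
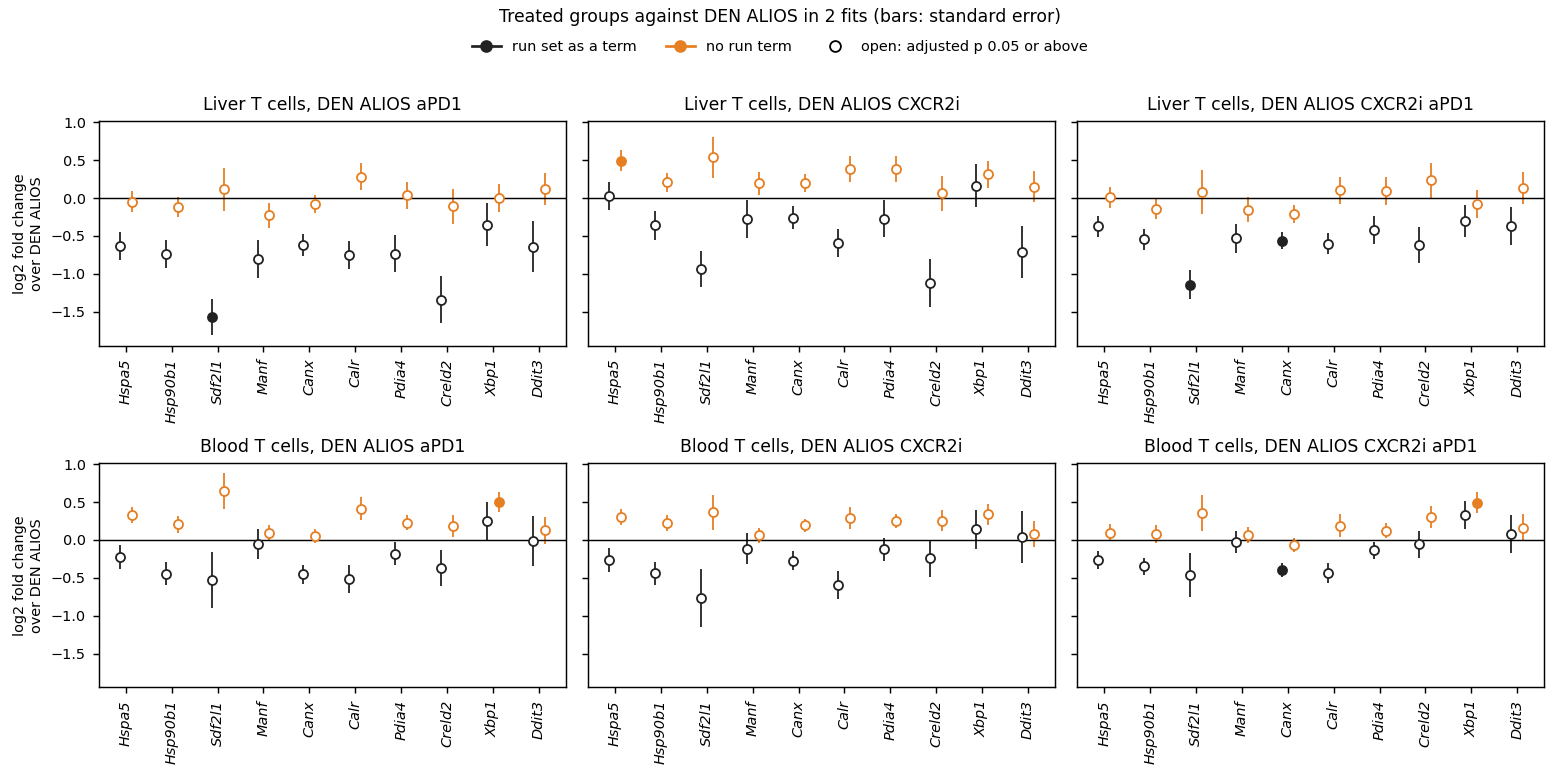
Log2 fold change of each member against DEN ALIOS alone, with the SE as error bar, in liver (upper panels) and blood (lower panels) T cells under aPD1, CXCR2i and the combination, fitted with the run set as a term (black) and without it (orange). Liver Sdf2l1 under aPD1 stands at -1.57 with the term and at 0.12 without it.

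Run sets A and B are linked in this fit only by the combination, so the aPD1 and DEN ALIOS CXCR2i estimates also rest on its 2 set A and 3 set B libraries. Those linking libraries were not left out in the aPD1 and DEN ALIOS CXCR2i comparisons, so their weight there was not tested. The call of Sdf2l1 under aPD1 was lost when aPD1 replicate 3 or 5 or any single DEN ALIOS library was left out, and no member was called for the combination without its replicate 1 or 5, the set A libraries, or without DEN ALIOS replicate 1. The Canx call of the combination was lost in 9 of 11 such fits. In blood the combination called Canx at -0.39 ± 0.09 (2.53% of 12387 genes called), with 221 and 233 CPM in set A and 348, 323 and 315 CPM in set B against 268 to 324 CPM in DEN ALIOS. The call was lost without either set A library, combination replicate 1 or 2. Under aPD1 and CXCR2i no member was called in blood (0.0161% and 0.436%). Each had 3 members at an unadjusted p under 0.05, and DESeq2 called 1 and 0. Without the run term Xbp1 was called in blood under aPD1 (0.50 ± 0.14) and the combination (0.49 ± 0.14). None of the other pathway genes was called in liver in these 3 comparisons.

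In whole liver and tumours, where hepatocytes and tumour cells contribute most of the RNA, the members were higher in tumours. Hspa5 ran from 720 to 1096 CPM in liver tissue (median 892), from 966 to 8223 CPM in small tumours (2252) and from 702 to 3586 CPM in large tumours (2210). Of 50 tumours, 47 lay above every liver tissue library for Hspa5. Sdf2l1 ran from 13.0 to 37.4 CPM in tissue (24.2), 23.9 to 399 in small (102) and 10.7 to 175 in large tumours (102), with 47 of 50 tumours above all tissue. Ddit3 ran from 6.31 to 10.6 CPM in tissue (7.26), 9.82 to 97.6 in small (22.8) and 7.14 to 41.5 in large tumours (19.9), again with 47 of 50 above. Creld2 had medians of 33.0 CPM in tissue, 100.2 in small and 101.5 in large tumours, and Manf 84.5, 205 and 201 CPM. The lectin chaperones differed least, with 35 (Canx) and 11 (Calr) of 50 tumours above all tissue. Calr had medians of 784, 867 and 862 CPM and overlapping ranges.

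**Figure D4:**
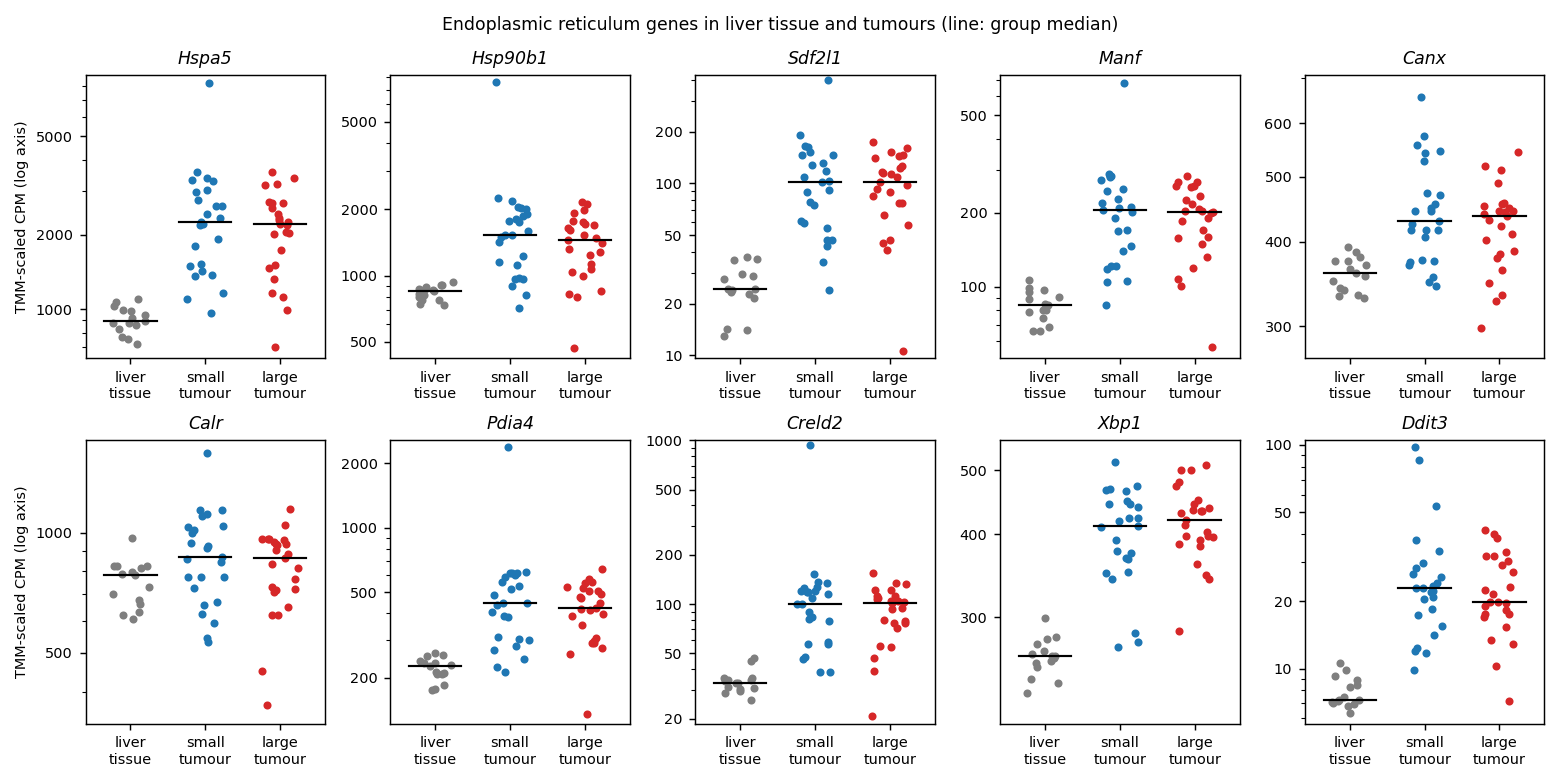
Level of each member in liver tissue (15 libraries), small tumours (25) and large tumours (25), in scaled CPM on a log axis, with each library as a point and a line at the group median. Hspa5 medians are 892, 2252 and 2210 CPM, and small tumour replicate 1 stands highest for 9 of the 10 members.

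All 10 members were called higher in large and in small tumours than in liver tissue, where 70.5% and 65.7% of 14538 genes were called. Called higher were 38.5% and 34.7% of the 14538 genes. In large tumours the log2 fold change was 2.14 ± 0.25 for Sdf2l1, 1.67 ± 0.20 for Ddit3, 1.56 ± 0.26 for Creld2, 1.34 ± 0.17 for Hspa5, 1.29 ± 0.17 for Manf, 1.06 ± 0.18 for Pdia4, 0.86 ± 0.17 for Hsp90b1, 0.64 ± 0.06 for Xbp1, 0.29 ± 0.06 for Canx and 0.21 ± 0.09 for Calr. The Calr call in large tumours was lost with DESeq2, relative log expression scaling, no filter or no run term and without run 1 or 2. Its call in small tumours was lost with no run term (0.24 ± 0.11) and without run 1 (0.19 ± 0.13). Small tumours gave 2.22 for Sdf2l1, 1.90 for Creld2, 1.86 for Ddit3 and 1.49 for Hspa5, down to 0.29 for Calr. Large against small tumours called no member (2.48%), with 0 at an unadjusted p under 0.05 and 0 called by DESeq2. The labels name no animal for tumours or tissue, so libraries of 1 mouse may be among them and the p-values then measure the spread between these samples only.

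Small tumour replicate 1 stood apart. It was the highest of the 50 tumours for 9 members, at 930 CPM for Creld2 (next 154), 7588 for Hsp90b1 (next 2262), 2376 for Pdia4 (next 645), 8223 for Hspa5 (next 3586) and 680 for Manf (next 288). For Xbp1 it was rank 33, at 393 CPM. Without it every member was still called higher in both tumour groups, and the small tumour values were 1.54 for Creld2, 0.90 for Hsp90b1 and 1.04 for Pdia4. The Pearson r of Xbp1 with Hspa5 over libraries was 0.128 in large tumours (n = 25), 0.235 in small tumours (n = 25) and 0.242 in tissue (n = 15), while the other 8 members ran from 0.695 (Creld2) to 0.956 (Pdia4) in tissue, from 0.754 (Calr) to 0.949 (Manf) in large and from 0.851 (Ddit3) to 0.990 (Manf) in small tumours. Within single runs of at least 6 libraries the r of Xbp1 was -0.277 and 0.252 in large tumours, 0.444 and 0.717 in small tumours and -0.0157 and 0.612 in tissue. That of Ddit3 was 0.653 and 0.894 in small tumours, so the low value of Xbp1 over all small tumours did not hold within runs. These correlations are descriptions over libraries that share sequencing runs and depth scaling.

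In the other pathway lists between 4 of 8 and all of the genes were called higher in a tumour group, where 38.5% (large) and 34.7% (small) of all genes were. All 12 N-glycan genes rose in both tumour groups, with Ostc, an oligosaccharyltransferase subunit, at 1.26 ± 0.10 in large tumours. Of 14 translocon genes 12 rose in each, with Sec61a1, the channel subunit, at 1.02 ± 0.09. Of 18 genes of the PERK and ATF4 arm 14 rose in each and 3 (large) or 4 (small) fell, led by the serine synthesis enzyme Psat1 at 4.03 ± 0.30 and the cystine transporter Slc7a11 at 4.84 ± 0.80 in large tumours. Of 20 other chaperones 16 rose and 1 fell, with Dnajc10 at 2.06 ± 0.17 and Pdia6 at 1.59 ± 0.18. Of 14 degradation genes, 8 rose in large and 9 in small tumours, with Derl3 at 3.09 ± 0.48 and 3.71 ± 0.50. Among 8 sensors and transcription factors 7 rose in large and 4 in small tumours, with Creb3l2 at 1.32 ± 0.09. Beside these, summed hepatocyte markers had medians of 107131 CPM in tissue, 243690 in small and 220249 in large tumours. Macrophage and monocyte genes fell (9 of 10), all 12 cell cycle genes rose, and summed plasma cell markers had medians of 315.5, 260 and 239 CPM. The part of these in the members' levels was not tested.

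Neutrophils are not named in the choice of these genes. Their libraries are separate from those of T cells and tissue, but many come from mice that also gave T cell libraries. The members were chosen with earlier results of these data known, so the neutrophil tests are not taken as independent of that choice. Liver neutrophils had more of the chaperone messages than blood neutrophils of the same animal. Hspa5 ran from 85.0 to 264 CPM in blood of DEN ALIOS (median 236) and from 274 to 900 CPM in liver (685), without overlap. Under aPD1 it was 224 to 284 CPM in blood (249) and 416.5 to 734 in liver (588.5). Under CXCR2i the medians were 294 and 522.5 CPM, and under the combination 259 and 368 CPM, with overlap. Of 29 animals, liver was higher in 29 for Calr, Hsp90b1 and Pdia4, in 28 for Hspa5, Manf and Canx, in 26 for Sdf2l1, in 22 for Creld2 and in 18 for Ddit3.

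Members called higher in liver neutrophils numbered 7 in DEN ALIOS (43.2% of 12831 genes called, 26.2% higher), 8 under aPD1 (54.7%, 32.8%), 7 under CXCR2i (40.5%, 23.6%) and 7 under the combination (45.6%, 24.6%). Hspa5 rose by 1.55 ± 0.25 in DEN ALIOS (edgeR adjusted p = 1.69e-05), 1.14 ± 0.26 under aPD1 (0.000718), 0.86 ± 0.19 under CXCR2i (0.000478) and 0.57 ± 0.21 under the combination (0.0237). Hsp90b1 rose by 1.65 ± 0.28, 2.25 ± 0.31, 1.06 ± 0.21 and 1.41 ± 0.23 in the same order. Manf rose by 2.25 ± 0.29, 2.52 ± 0.30, 0.83 ± 0.20 and 1.24 ± 0.23. Pdia4, which had medians of 2.48 to 4.10 CPM in blood and 14.2 to 61.5 CPM in liver, rose by 3.49 ± 0.61, 4.34 ± 0.68, 1.85 ± 0.43 and 2.72 ± 0.48. Canx and Calr were called in all 4 groups, from 0.88 ± 0.20 to 2.05 ± 0.29 and from 0.52 ± 0.16 to 1.46 ± 0.24. Creld2 was called under aPD1 alone, at 0.88 ± 0.31, a call lost without aPD1 replicate 2 or 4, and Ddit3 in no group, at -0.28 ± 0.44 to 0.87 ± 0.41.

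Sdf2l1 was close to absent from blood neutrophils. Each blood library held 0 to 11 counts of it. Summed over libraries, blood held 3 counts in DEN ALIOS, 7 under CXCR2i, 12 under the combination and 17 under aPD1, against 63, 81, 114 and 562 counts in liver. The ratio per gene count was 37.4 in DEN ALIOS (95% exact interval 12.2 to 186), 13.8 under CXCR2i (6.42 to 35.5), 17.6 under the combination (9.67 to 35) and 39.8 under aPD1 (24.6 to 68.8). These intervals cover counting error only. Single libraries and T cell markers moved with these ratios. Blood aPD1 replicate 5 held 11 of the 17 counts, and without it the aPD1 ratio was 91.1 (41.6 to 249). Without blood DEN ALIOS replicate 2 that group held 1 blood count and its ratio was 93.9 (16.2 to 3765). Without 4 liver libraries rich in T cell markers, described below, liver held 18 counts in DEN ALIOS and 108 under aPD1, and the ratios were 18.6 (5.44 to 98.7) and 15.3 (9.13 to 27.2). edgeR called it in all 4 groups.

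**Figure D5:**
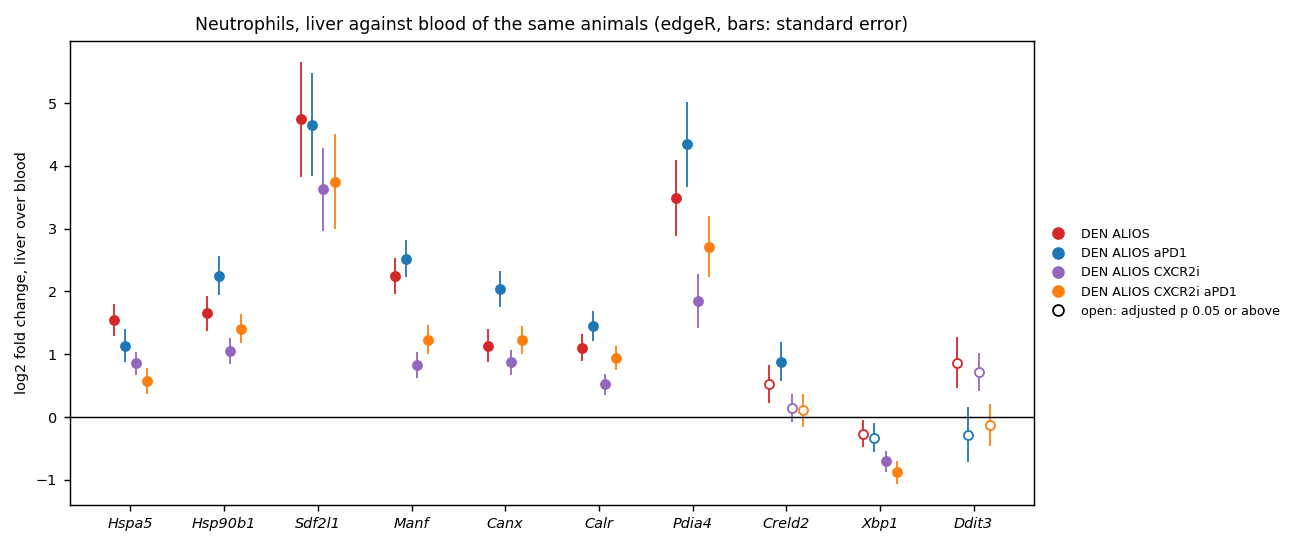
Log2 fold change of each member between liver and blood neutrophils of the same animals, with the SE as error bar, for the 4 DEN ALIOS groups. Filled points have an adjusted p under 0.05 and open points do not. Sdf2l1 and Pdia4 lie highest and Xbp1 lies below 0 in all 4 groups.

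Xbp1 went the other way in neutrophils, with calls under CXCR2i and the combination alone. It was higher in liver in 4 of 29 animals. Called lower were 17.1% of genes in DEN ALIOS, 21.9% under aPD1, 16.8% under CXCR2i and 21.0% under the combination. Xbp1 fell by 0.70 ± 0.16 under CXCR2i (edgeR adjusted p = 0.000912) and by 0.88 ± 0.18 under the combination (0.00027), and its values in DEN ALIOS (-0.26 ± 0.21) and under aPD1 (-0.33 ± 0.23) were not called. Without the 4 liver libraries rich in T cell markers, described below, Xbp1 stood at 0.13 ± 0.22 in DEN ALIOS and -0.006 ± 0.24 under aPD1. It then stood at -0.69 ± 0.13 under CXCR2i and -0.86 ± 0.15 under the combination, both still called. Its blood levels had medians of 101 to 144 CPM and its liver levels 73.3 to 90.3 CPM. In T cells its 6 estimates were above 0. Whether the effects in neutrophils and T cells differ was not tested. Another scaling (relative log expression) shifts the median of all genes in these neutrophil comparisons by 0.0608 to 0.211 on the log2 scale.

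Of the other pathway genes in neutrophils, the PERK and ATF4 arm had 9, 7, 5 and 8 of 16 genes higher in DEN ALIOS, aPD1, CXCR2i and the combination, with 1 or 2 lower, and other chaperones 9, 12, 8 and 9 of 20, with 0 to 4 lower. Txndc5, a disulfide isomerase, rose by 4.03 ± 0.65 (CXCR2i) to 6.36 ± 1.01 (DEN ALIOS), and Lman1, a glycoprotein export receptor, by 3.41 ± 0.54 to 4.99 ± 0.76. The sensor Eif2ak3, which encodes PERK, fell by 1.09 ± 0.20, 1.56 ± 0.23, 1.29 ± 0.16 and 1.43 ± 0.18, and the degradation gene Derl2 by 1.28 ± 0.25, 1.00 ± 0.26, 1.09 ± 0.19 and 1.83 ± 0.22. Markers of other cells moved beside them. Summed plasma cell markers had medians of 1.56 to 3.25 CPM in blood and 14.8 to 61.6 CPM in liver neutrophils, and 4 to 8 of 8 tested genes rose. Summed T cell markers reached 887 CPM in a liver library under aPD1 and 352 CPM in one of DEN ALIOS, where the summed neutrophil markers fell to 962 and 2725 CPM, against medians of 10664 and 19592 CPM. Those of liver aPD1 replicate 2 and liver DEN ALIOS replicate 5 were 453 and 322 CPM. Without these 4 libraries and their blood partners, 8 members were called higher in DEN ALIOS, 7 under aPD1, 8 under CXCR2i and 7 under the combination. Genes called in all fell from 5545 to 3563 in DEN ALIOS and from 7016 to 2776 under aPD1. Hspa5 then stood at 1.96 ± 0.24 in DEN ALIOS, 1.42 ± 0.27 under aPD1, 0.87 ± 0.15 under CXCR2i and 0.58 ± 0.16 under the combination. Ddit3 was called in that fit in DEN ALIOS (1.60 ± 0.35) and under CXCR2i (0.73 ± 0.21), and Creld2 under aPD1 was not (0.69 ± 0.41). All 8 endothelial genes and 9 or 10 of 11 hepatocyte genes rose in every group, although the summed hepatocyte level had medians of 909 to 1206 CPM in blood and 864 to 1259 CPM in liver. Immediate early and cytosolic heat shock genes rose too, 10 or 11 of 12 in each group, with summed medians of 2078 to 3171 CPM in blood and 8001 to 14348 CPM in liver. The part of other cells or of handling in the members' differences was not tested.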

How the data were processed

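The authors deposited raw read counts per Ensembl gene for all 199 libraries, which were used as they stand. Per the submitters' processing notes, FastQC 0.11.8, Trim Galore 0.6.4, HISAT2 2.1.0 and HTSeq 0.11.2 were used with GRCm38. The annotation release and the strand setting are not given in the sources used here. Per the labels' protocols, tissue RNA went into TruSeq stranded mRNA libraries and sorted cells into SMARTer Stranded Total RNA Pico libraries, so levels are compared within 1 kind of sample only. The 5 summary rows of the table, 63.2% of its entries, were left out. Of 37713 identifiers, 37607 matched a symbol.

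Counts were fitted with edgeR 4.0.16 in R 4.3.3, with limma 3.58.1: trimmed mean of M values scaling, filterByExpr with a minimum count of 10 and a minimum total of 15, the robust quasi-likelihood test and Benjamini-Hochberg adjustment over all genes tested at 0.05. The SE of a log2 fold change is its size divided by the square root of F. Liver and blood libraries of 1 animal were paired by the animal named in the labels, which entered as a block. Fits against DEN ALIOS held the run set as a term, with the sets linked through the combination (A and B) and DEN ALIOS CXCR2i (B and C). Only the combination shares a run set with DEN ALIOS. The main fits against PBS or CXCR2i, whose groups also share no run set, held no run term. For DEN ALIOS against PBS a fit with that term was an alternative. Tissue fits held the run. The script was tested on simulated counts. Alternatives were DESeq2 1.42.0, relative log expression scaling, no filter, other terms and leaving out libraries. Levels were computed in Python 3.11.15 with numpy 2.4.6 and pandas 2.3.3 and drawn with matplotlib 3.10.9.

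The members and the gene lists were chosen with earlier results of these data known. Every member is described in every comparison. Of each of 6 other pathway lists the called genes are counted and at most 2 called genes with the largest log2 fold change in a comparison are named. Likeness to Hspa5 is Pearson's r over 12 group means of log2 (CPM + 1), among genes whose mean reached 10 CPM, leaving out members, ribosomal, mitochondrial, receptor and immunoglobulin segment genes and unnamed transcripts. Of 1116 pairs of libraries of 1 group, none agreed within sampling noise, and the closest pair had a chi-square of 2.72 for each degree of freedom.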

Additional observations from a re-analysis of the deposited data

Results flagged for a closer look

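Of 200 sets of 1 member in 1 sorted-cell group of up to 10 libraries, 21 held a library that stood far from the others of its group. Chance alone places about 1 in 20 such sets there. In blood neutrophils of DEN ALIOS, replicate 1, a library of 950488 gene counts, held Hspa5 at 85.0 CPM, against 203 to 264 CPM in the others. Creld2 was at 0 CPM there, where that depth allows up to 3.16 CPM, against 5.25 to 8.69 CPM. Replicate 6 held Ddit3 at 188 CPM (others at most 81.3). In blood neutrophils of DEN ALIOS CXCR2i, replicate 9 stood low for Hsp90b1 (38.9 CPM) and Canx (24.6 CPM), and replicate 1 high for Ddit3 (169.5 CPM). Blood neutrophils of aPD1 replicate 5 stood high for Sdf2l1 (1.84 CPM, others at most 0.493) and Pdia4 (18.6 CPM, others at most 2.59). In liver neutrophils of the combination, replicate 2, with 580113 gene counts, held Pdia4 at 69.5 CPM and replicate 1 held Creld2 at 25.5 CPM.

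Among blood T cells, CXCR2i replicate 4 stood high for Canx (367 CPM). DEN ALIOS replicate 6 stood high for Hspa5 (248 CPM) and Hsp90b1 (543 CPM), and replicate 7 low for Calr (287 CPM). DEN ALIOS CXCR2i replicate 1 stood high for Sdf2l1 (13.6 CPM), aPD1 replicate 4 low for Sdf2l1 (6.40 CPM) and combination replicate 5 high for Xbp1 (36.7 CPM). Among liver T cells, CXCR2i replicate 6 stood low for Xbp1 (27.5 CPM), DEN ALIOS replicate 6 low for Canx (356 CPM), DEN ALIOS CXCR2i replicate 4 high for Manf (95.6 CPM) and combination replicate 3 high for Creld2 (57.7 CPM, others at most 27.2).

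The liver-blood difference of T cells differed between groups, by the interaction in the edgeR fit, for Hspa5 by 0.73 ± 0.17 (log2, SE, adjusted p = 0.00688) and for Xbp1 by 0.75 ± 0.24 (adjusted p = 0.0378) between DEN ALIOS and PBS. Between CXCR2i and PBS it differed for Hspa5 by 0.73 ± 0.17 (adjusted p = 0.0103). The members were chosen with results of these data known, and both comparisons share the PBS animals.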

How the results depend on the processing

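Counts of members called follow, with the value as reported in parentheses. DESeq2 gave 4 for liver aPD1 (1, Sdf2l1, which has no adjusted p there and is not among the 4), 3 for liver DEN ALIOS CXCR2i (0) and 4 for the liver combination (2), all against DEN ALIOS, 1 for blood aPD1 (0) and 3 for the blood combination (1). Genes called in all by DESeq2 were 53, 772 and 462 of 13005 for the 3 liver comparisons, in the order named. For DEN ALIOS CXCR2i against CXCR2i it gave 1 in liver (0) and 2 in blood (0), with 2004 of 13501 and 1227 of 12659 genes called in all. Relative log expression gave 1 for the liver and the blood form of that comparison, 0 for blood DEN ALIOS against PBS (1) and 1 for the difference of site differences between DEN ALIOS and PBS (2). Genes called in all were 1325 of 13501, 1076 of 12659, 2807 of 12659 and 1376 of 13859 in the same order. With no filter, blood DEN ALIOS against PBS, liver aPD1 and the liver combination gave 0 and blood DEN ALIOS CXCR2i against CXCR2i gave 1. Genes called in all were 2588 of 26794, 0 of 26397, 0 of 26397 and 1001 of 26794. Without libraries under 1000000 counts, liver CXCR2i against PBS gave 5 (3), liver DEN ALIOS CXCR2i against CXCR2i 1 and the difference of site differences between DEN ALIOS and PBS 1. Genes called in all were 3277 of 13401, 1795 of 13401 and 1414 of 13773. Without shallow or hepatocyte-rich libraries, chosen after seeing the data, both differences of site differences against PBS gave 0 (2 and 1), liver DEN ALIOS CXCR2i against CXCR2i 1, liver aPD1 0 and the liver combination 1. Genes called in all were 620 and 266 of 13764, 1809 of 13388, 0 of 13074 and 6 of 13074. With the run set as a term, DEN ALIOS against PBS gave 1 in liver (3) and 0 in blood (1), and Hsp90b1 in blood turned to 0.461. Genes called in all were 1669 of 13412 in liver and 420 of 12528 in blood. Without the run term liver aPD1 and the liver combination gave 0, with Sdf2l1 at 0.117 and 0.0815, and liver DEN ALIOS CXCR2i and blood aPD1 gave 1. In liver, 8, 0 and 986 of 13005 genes were called for aPD1, the combination and DEN ALIOS CXCR2i. Within set A, chosen after seeing the data, the combination gave 1 in liver and 0 in blood. Without Vehicle or isotype labels liver aPD1 and the liver combination gave 0. Genes called in all are not given here for the blood comparisons against DEN ALIOS, for set A or without Vehicle or isotype labels. Changes in members called there cannot be told apart from changes over all genes. The causes were not tested.

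Replicate numbers are shared between groups, but in 15 comparisons none had a correlation above 0.1 in every same-numbered pair (-0.51 to 0.595), and 10 of 124 pairs correlated best with their own number. With the replicate block, liver aPD1, the liver combination and blood CXCR2i against PBS gave 0 members called. Over all genes the block left 0 called for the 3 liver comparisons against DEN ALIOS and 0, 0 and 40 for the blood ones.

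With 1 library or animal left out, members called ran from 2 to 4 for liver DEN ALIOS against PBS, 0 to 1 for blood DEN ALIOS against PBS, 0 to 1 for liver aPD1, 0 to 3 for the liver combination and 0 to 2 for the blood combination. They stayed at 0 for DEN ALIOS CXCR2i against DEN ALIOS in liver (0 to 0) and blood (0 to 0) and for blood aPD1 (0 to 0). Only libraries of the groups compared were left out. Between liver and blood the same held for animals. Members called between liver and blood T cells ran from 3 to 7 in aPD1 and from 2 to 6 in the combination, and between liver and blood neutrophils from 7 to 9 in aPD1. That last range and the fits without neutrophil libraries over 100 CPM of T cell markers were chosen after seeing the data. Genes called in all are not given for the fits with 1 library or animal left out. A member's lost call there cannot be told apart from fewer calls over all genes.

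Over single members, DESeq2 left 272 calls or non-calls as they were, added 24 and lost 1. With relative log expression, which changes the scaling alone, the share of called genes that were higher moved by over 10 points in 3 comparisons. It went from 52.5% to 62.8% for liver against blood in PBS, and between sites from 52.3% to 39.6% for DEN ALIOS against PBS and from 46.7% to 29.5% for CXCR2i against PBS. DESeq2, which changes the test too, gave 41.9% and 32.8% for the last 2. It moved 7 others by over 10 points that relative log expression did not. Between sites, DEN ALIOS CXCR2i against DEN ALIOS went from 85.9% to 66.7%. Against DEN ALIOS in liver, aPD1 went from 0.0% of 1 called gene to 62.3% of 53. DEN ALIOS CXCR2i went from 75.9% of 87 to 65% of 772, and the combination from 68.2% of 22 to 53.7% of 462. In blood, aPD1 went from 100% of 2 called genes to 81.0%. DEN ALIOS CXCR2i there went from 85.2% of 54 to 67.2%, and the combination from 84.7% of 313 to 68.9%. Depth limits Sdf2l1, Creld2 and Pdia4 in blood neutrophils and Sdf2l1 in the shallow PBS libraries.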
